A study of Homo sapiens with 8 samples.

Results

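The genes described here encode the proteins of the cytosolic ribosome, and the question was where G4 ChIP-seq intervals lie at their promoters in K562 and HepG2 cells. G-quadruplexes (G4s) are four-stranded structures that G-rich DNA can fold into. Members were the autosomal protein-coding genes whose symbols are RPL or RPS followed by a digit, with RPLP0, RPLP1, RPLP2 and RPSA, and without the S6 kinases and RPS19BP1. The rule found 83 of 19229 annotated genes, 51 of the large and 32 of the small subunit. It used gene names only, not the intervals. K562 is a chronic myelogenous leukemia line from ATCC and HepG2 a hepatocellular carcinoma line. Neither was treated, and the labels name 3 libraries precipitated with a G4 antibody and 1 library without antibody for each line. Chromatin was sheared and treated with RNase A before the BG4 antibody was added. The authors called peaks per replicate, 8 for K562 and 9 for HepG2, and merged them into 2 lists a line. The paper describes these as 3 independent experiments per line, each with 2 to 3 technical replicates. The replicate thresholds therefore also count technical repeats. The high-confidence list holds stretches found in at least 5 of 8 replicates (K562) or 6 of 9 (HepG2), and the lower-confidence list those found in at least 2. The lists give positions without heights or replicate values, so no spread between replicates and no depth could be computed and no test was run. The 95% Wilson intervals below cover the counting of genes or intervals only. The different replicate numbers and thresholds cannot be told apart from the cell lines in any contrast between K562 and HepG2.

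Ribosomal protein genes are transcribed at high rates in dividing cells. Their promoters are compact, often carry sites for general activators such as SP1 and ETS factors, and mostly lack a TATA box. Transcripts typically start at a C followed by pyrimidines, the 5′ terminal oligopyrimidine (TOP) sequence, through which translation of the whole group is adjusted together.

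Of the high-confidence intervals at these promoters, few held a complete G4 motif. A motif here has 4 stretches of 3 or more G, separated by spacers of 1 to 7 bases, on the coding or the template strand. The motifs of RPL36AL, in both lines, RPL39L, in K562, and RPS16 and RPS26, in HepG2, are shown because they were 4 of the 5 members with one. The sequences run 5′ to 3′ on the strand that carries the G runs, which is the coding strand for RPL39L and RPS26 and the template strand for RPL36AL and RPS16. Capitals mark runs of at least 3 G or 3 C, here and in the sequences that follow. The motifs lie on hg19 at chr14:50087469-50087491 (+ strand), chr3:186857327-186857345 (- strand), chr19:39926765-39926790 (+ strand) and chr12:56435485-56435512 (+ strand).
RPL36AL: GGGGcGGGccggaGGGGtgtGGG
RPL39L: GGGcGGGGccGGGGcGGGG
RPS16: GGGctctgtGGGcggaaGGGGcGGGG
RPS26: GGGGcaGGGGGGaaGGGGGGGaGGGGGG

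The more usual case is shown by 4 stretches that lay in the high-confidence intervals of both lines, outside every annotated exon. They are RPL10A (chr6:35436049-35436177, + strand), RPL22 (chr1:6259665-6259786, - strand), RPS10 (chr6:34393849-34394006, - strand) and RPS3A (chr4:152020613-152020729, + strand), each read on the coding strand. Runs were present but scattered: RPL22 had 2 G runs and 2 C runs in 122 bp, RPS10 3 and 4 in 158 bp, RPS3A 1 and 2 in 117 bp, and RPL10A 3 and 3 in 129 bp. Neither these stretches nor the whole intervals around them held a complete motif.
RPL10A: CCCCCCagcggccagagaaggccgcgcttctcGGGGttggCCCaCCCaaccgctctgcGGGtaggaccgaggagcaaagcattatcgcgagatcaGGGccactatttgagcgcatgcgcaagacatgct
RPL22: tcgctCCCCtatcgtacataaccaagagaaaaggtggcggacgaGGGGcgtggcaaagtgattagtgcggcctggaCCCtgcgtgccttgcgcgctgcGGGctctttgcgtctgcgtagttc
RPS10: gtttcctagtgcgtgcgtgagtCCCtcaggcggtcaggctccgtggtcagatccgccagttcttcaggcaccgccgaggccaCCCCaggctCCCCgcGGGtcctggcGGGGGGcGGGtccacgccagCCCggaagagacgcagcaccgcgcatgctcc
RPS3A: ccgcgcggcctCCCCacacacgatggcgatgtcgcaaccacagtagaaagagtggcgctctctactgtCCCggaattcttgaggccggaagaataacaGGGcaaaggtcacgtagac

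For contrast, 4 members without an interval in any list are shown by the exon-free part of the 150 bp upstream of the transcription start site (TSS). They are RPL29 (chr3:52029912-52030061, - strand), RPL32 (chr3:12883082-12883214, - strand), RPL41 (chr12:56510267-56510373, + strand) and RPS27 (chr1:153963088-153963237, + strand), again on the coding strand. The GC content was 36.8% for RPL32 and 49.3% for RPS27, against 57.9% for RPL41 and 60% for RPL29. RPL41 carried 4 G runs and 4 C runs in 107 bp and RPL29 3 and 3 in 150 bp.
RPL29: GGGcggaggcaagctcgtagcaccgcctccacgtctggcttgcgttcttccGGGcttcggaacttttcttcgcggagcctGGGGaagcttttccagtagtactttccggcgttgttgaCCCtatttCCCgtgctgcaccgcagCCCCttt
RPL32: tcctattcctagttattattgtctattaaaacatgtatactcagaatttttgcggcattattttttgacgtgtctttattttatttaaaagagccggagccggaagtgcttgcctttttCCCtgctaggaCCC
RPL41: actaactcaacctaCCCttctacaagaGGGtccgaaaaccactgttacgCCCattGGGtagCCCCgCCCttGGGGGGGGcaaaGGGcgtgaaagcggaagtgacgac
RPS27: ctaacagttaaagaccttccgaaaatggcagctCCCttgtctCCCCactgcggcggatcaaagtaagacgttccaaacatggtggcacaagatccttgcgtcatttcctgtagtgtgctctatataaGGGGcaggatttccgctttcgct

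A member was scored by an interval sharing at least 1 bp with the 1 kb either side of any of its annotated TSSs. In K562, 40 of 83 members (48.2%, 95% interval 37.8 to 58.8) had a high-confidence interval, against 36.7% of all autosomal protein-coding genes. In HepG2, 47 members (56.6%, 45.9 to 66.8) had one, against 32% of all genes. With both lists, 61 members (73.5%) had an interval in K562 and 66 (79.5%) in HepG2, where the background was 51.3% and 52.9%. A high-confidence interval in both lines was found for 34 members (41.0%, 31.0 to 51.7), against 25.3% of genes. No list held an interval for 13 members (15.7%, 9.39 to 25), against 39.6% of genes. Windows are not all independent: RPS10 and the readthrough RPS10-NUDT3 share 1 promoter and the same intervals, and RPL17 and RPL17-C18orf32 have windows that overlap.

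**Figure D1:**
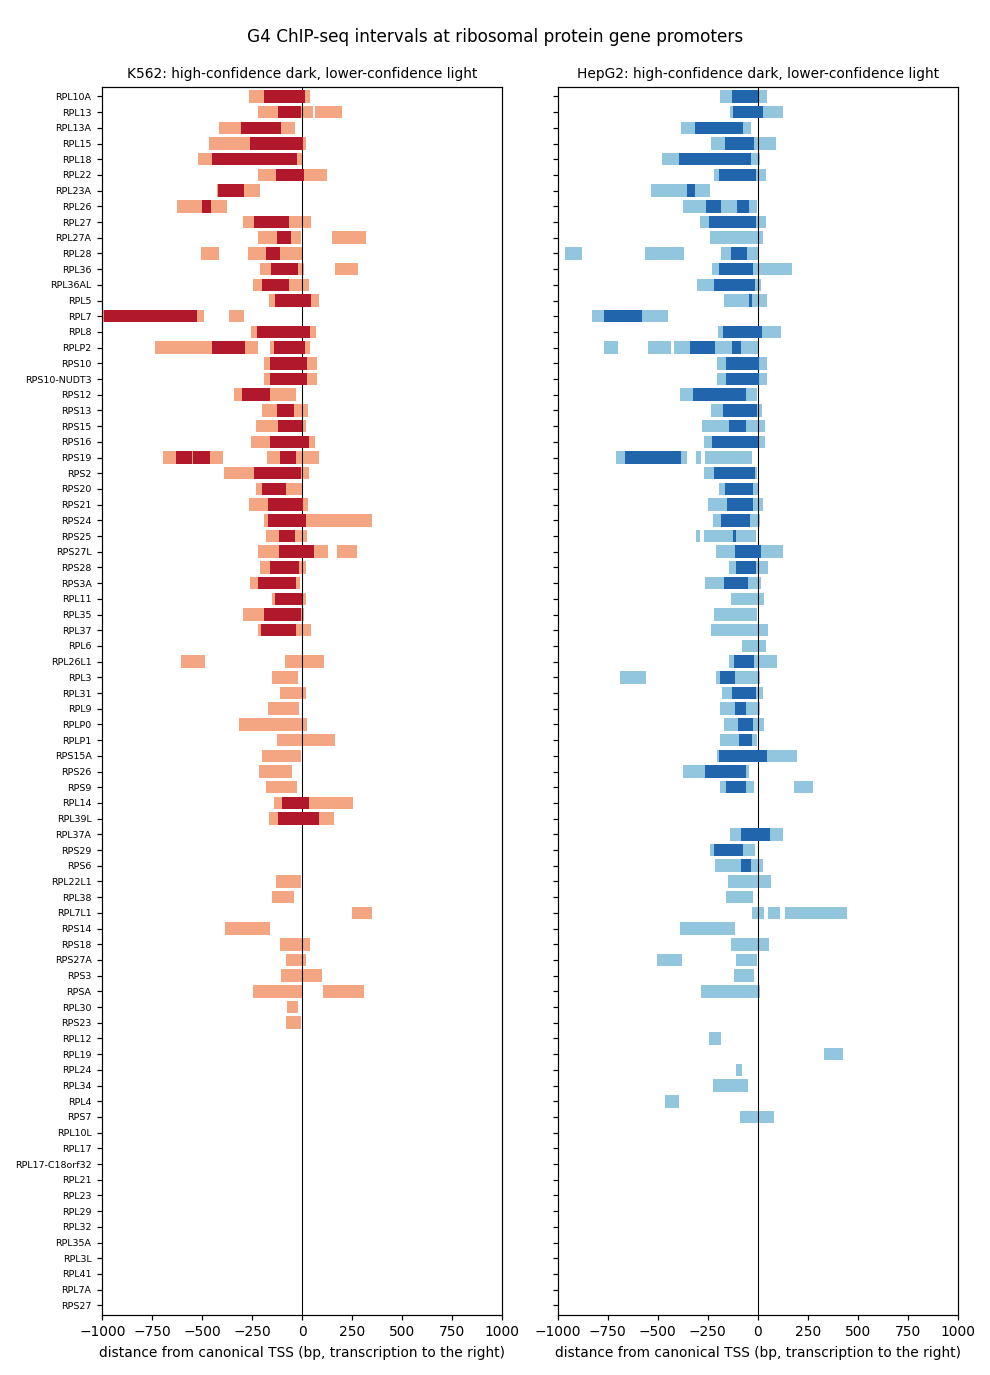
Each row is 1 of 78 of the 83 members, ordered by class, and each bar is an interval drawn by its distance in bp from the canonical TSS of the member, with transcription to the right, for K562 (left) and HepG2 (right). Dark bars are high-confidence and light bars lower-confidence intervals. Most dark bars lie within 200 bp upstream of the TSS, and the 12 members of the lowest rows have no bar; intervals at distant alternative TSSs, such as those of RPL6, RPL27A and RPL36, fall outside the drawn range.

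The 34 members with a high-confidence interval in both lines included RPL5, RPL7, RPL8, RPL10A, RPL13, RPL13A, RPL15, RPL18, RPL22, RPL23A, RPL26, RPL27, RPL27A, RPL28, RPL36, RPL36AL and RPLP2 of the large subunit. Of the small subunit they included RPS2, RPS3A, RPS10, RPS10-NUDT3, RPS12, RPS13, RPS15, RPS16, RPS19, RPS20, RPS21, RPS24, RPS25, RPS27L and RPS28. A high-confidence interval in HepG2 and a lower-confidence one in K562 was found at 10 members (12%, against 4.22% of all genes), among them RPL3, RPL9, RPL26L1, RPL31, RPLP0, RPLP1, RPS9, RPS15A and RPS26. The reverse held for 4 members (4.82%, against 8.24%), RPL6, RPL11, RPL35 and RPL37. Lower-confidence intervals in both lines, and no high-confidence one, were found at 9 (10.8%, against 6.05%), among them RPL7L1, RPL22L1, RPL38, RPS3, RPS14, RPS18, RPS27A and RPSA. RPL30 and RPS23 had a lower-confidence interval in K562 only (2.41%, against 4.35%), and RPL4, RPL12, RPL19, RPL24, RPL34 and RPS7 in HepG2 only (7.23%, against 6.54%), shares near or below those of all genes. Members with none included RPL17, RPL17-C18orf32, RPL21, RPL23, RPL29, RPL32, RPL35A, RPL41, RPL7A, RPL3L, RPL10L and RPS27.

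The widest high-confidence interval of K562 at a member was at RPL7 and covered 465 bp, with its centre upstream of the canonical TSS at -760. That centre lies 45 bp downstream of another annotated RPL7 start. RPL18 followed with 425 bp and RPL27A with 295 bp, and RPL8 had 265 bp. RPL18 had the widest interval of HepG2 with 362 bp, before RPS19 with 281 bp and RPS12 with 265 bp, and RPL13A had 242 bp. RPL18 was thus among the 6 widest of both lists. The RPL18 interval lies on chr19:49122461-49122885 in K562 and on chr19:49122468-49122829 in HepG2. Its centre is nearer to the TSS of SPHK2, which is transcribed in the other direction, than to that of RPL18. At the other end were HepG2 intervals of 14 bp at RPL5 and 16 bp at RPS25, where the K562 intervals covered 181 bp and 77 bp.

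The members' intervals were narrower than those of all genes together. Their high-confidence intervals numbered 45 in K562 and 49 in HepG2, each counted once. The median width was 163 bp in K562, with a 95% interval of the median of 133 to 185 bp, and 142 bp (118 to 172) for HepG2. Over all genes it was 204 bp (7242 intervals) and 182 bp (6000 intervals). The intervals of mitochondrial ribosomal protein genes were about as narrow, 176 bp (142 to 200) and 148 bp (120 to 179). Positions are given in bp from the TSS to the centre of an interval, negative upstream. Measured from the nearest TSS of the member, the median centre lay at -87.5 in K562 (95% interval -118.5 to -61) and at -87 in HepG2 (-104.5 to -60.5). All genes gave -51.75, outside the first interval, and -61, inside the second. Positions of single intervals are from the canonical TSS. Of the members' intervals, 41 of 45 and 47 of 49 lay within 1 kb of the canonical TSS, and every one of these had its centre upstream of it. In K562, 31 centres lay in the first 200 bp upstream, and in HepG2 41. Measured from the nearest TSS, 68.9% of the members' intervals lay in these 200 bp in K562 and 77.6% in HepG2. Over all genes the shares were 70.4% and 68.0%, so in K562 the members were near all genes.

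The profile around the canonical TSS shows the same position. High-confidence intervals of HepG2 covered at most 47.0% of members, at positions -85 to -75, and those of K562 at most 39.8%, at positions -113 to -82. Over all genes the highest coverage was 21.6% in HepG2, at position -91, and 26.8% in K562, at position -65. At the TSS itself the members fell to 10.8% in HepG2 and 18.1% in K562, below the 12.7% and 20.8% of all genes. The lower-confidence lists reached 68.7% of members in HepG2 and 65.1% in K562, against 38.3% and 40.7% of genes. At the TSS itself these lower-confidence lists covered 51.8% of members in HepG2 and 48.2% in K562. All genes gave 33.7% and 37.3%.

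**Figure D2:**
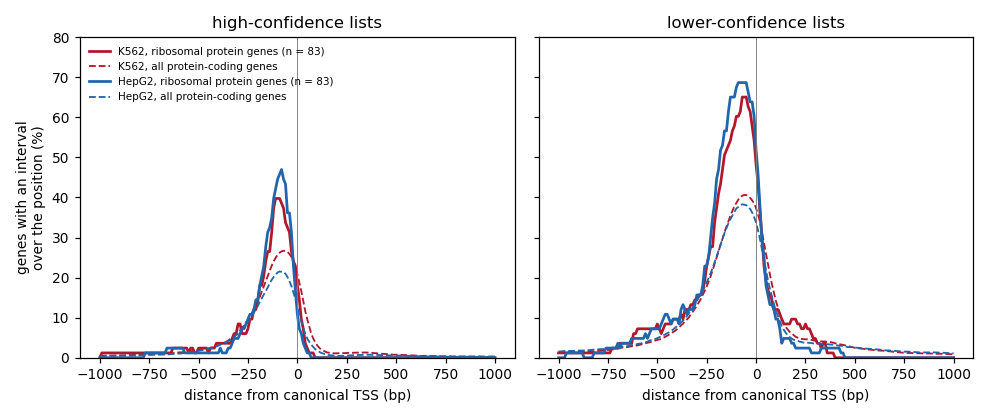
The horizontal axis is the distance from the canonical TSS in bp and the vertical axis the percentage of genes with an interval over that position, in the high-confidence lists (left) and the lower-confidence lists (right). Solid lines are the 83 members and dashed lines all autosomal protein-coding genes, in red for K562 and blue for HepG2. The members' high-confidence lines peak at 39.8% (K562) and 47.0% (HepG2) upstream of the TSS and drop to 18.1% and 10.8% at it.

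At members with a high-confidence interval in both lines, the lists mostly overlapped, as they did over all such genes. Overlap was found at 33 of 34 members (97.1%) and at 96.7% of 4861 genes. The closest centres were a median of 26 bp apart, and at most 50 bp apart at 29 members (85.3%), against 23.5 bp and 79.7% of genes. The longest overlap was short at some members, 7 bp at RPS25, 14 bp at RPL5 and 24 bp at RPL28. The covered length was larger in K562 at 22 members (64.7%, against 62.1% of genes) and in HepG2 at 12. RPL26, a large subunit protein, was the exception without overlap. Its K562 interval covered 48 bp with the centre at position -478.5, while HepG2 had intervals of 59 bp at -72 and 72 bp at -220.5. RPL23A, the binding site on the ribosome for factors that handle nascent proteins, had intervals farther upstream in both lines, 129 bp at -354 in K562 and 37 bp at -333 in HepG2.

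The small subunit had a high-confidence interval in 16 of 32 members in K562 (50%, 33.6 to 66.4) and 22 in HepG2 (68.8%, 51.4 to 82.0). For the large subunit the counts were 24 of 51 (47.1%, 34.1 to 60.5) and 25 (49.0%, 35.9 to 62.3). No interval in any list was found for 2 small subunit members, among them RPS27, and for 11 of the large subunit. All 6 members with a high-confidence interval in K562 but not in HepG2 were of the large subunit. The intervals of the 2 subunits overlap in each of these shares.

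**Figure D3:**
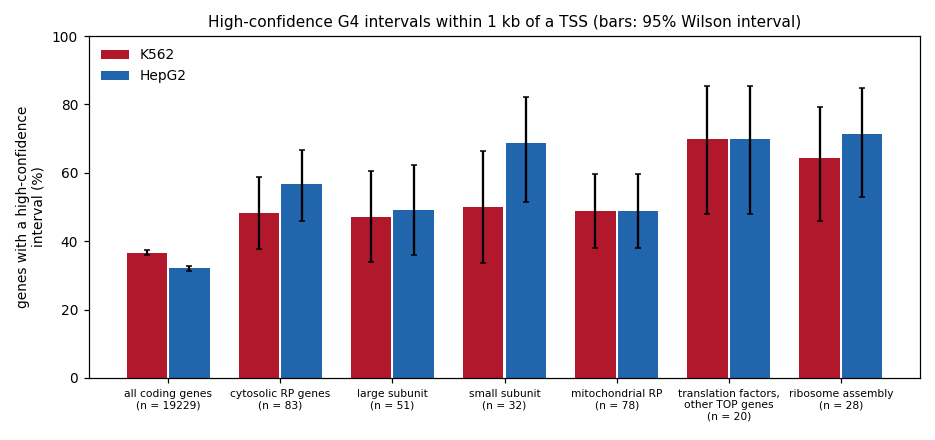
Bars give the percentage of genes in each list with a high-confidence interval within 1 kb of a TSS, in red for K562 and blue for HepG2, and black lines are 95% Wilson intervals. The cytosolic ribosomal protein genes stand at 48.2% and 56.6%, all coding genes at 36.7% and 32%, and the mitochondrial ribosomal protein genes at 48.7% in both lines.

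RPL5 and RPL11 form the 5S RNP, which joins the large subunit late in its assembly and can also bind MDM2. RPL5 had a K562 interval of 181 bp at -47 and a HepG2 interval of 14 bp at -36.5. RPL11 had a K562 interval of 133 bp at -67, and HepG2 had there a lower-confidence interval of 163 bp at -52. Both genes were thus marked at high confidence in K562 and 1 of them in HepG2, a pair too small to compare with the background.

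The ribosomal stalk, which recruits translation factors, consists of RPLP0, RPLP1 and RPLP2. HepG2 had high-confidence intervals at all 3 genes, 78 bp at RPLP0, 63 bp at RPLP1, and 122 bp and 48 bp at RPLP2. K562 had them at RPLP2 only, of 163 bp and 151 bp, and lower-confidence intervals of 339 bp at RPLP0 and 291 bp at RPLP1. The farther RPLP2 intervals, at -367 in K562 and -275.5 in HepG2, lie nearer to the TSS of the neighbouring gene PIDD1.

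Mutations in many ribosomal protein genes cause Diamond-Blackfan anaemia, a failure of red cell production. Of the 19 members on this list, 11 had a high-confidence interval in K562 (57.9%, 36.3 to 76.9) and 13 in HepG2 (68.4%, 46.0 to 84.6). All members gave 48.2% and 56.6%, inside these intervals. All genes gave 36.7%, also inside the K562 interval, and 32%, below the HepG2 one. RPL5, RPL15, RPL18, RPL26, RPL27, RPS10, RPS19, RPS24 and RPS28 had one in both lines. RPL11 and RPL35 had one in K562, and RPL31, RPS15A, RPS26 and RPS29 in HepG2. RPS7 had a lower-confidence HepG2 interval of 172 bp, and 3 had none (15.8%, against 15.7% of all members), among them RPL35A and RPS27.

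RPS19, the gene most often mutated in this anaemia, had intervals at separate sites. In K562 it had 3 high-confidence intervals, 78 bp at -591.5, 86 bp at -502.5 and 79 bp at -71. In HepG2 it had 1 of 281 bp at -524, which overlapped the upstream K562 pair, and lower-confidence intervals of 26 bp at -297.5 and 235 bp at -148. The site next to the TSS was thus high-confidence in K562 only. RPS24, also mutated in the anaemia, had 1 site in both lines, 189 bp at -75 in K562 and 146 bp at -112.5 in HepG2. RPL35 had 185 bp at -98 in K562 and a lower-confidence interval of 215 bp at -110 in HepG2.

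A high-confidence interval in one line with no interval of any kind in the other was found at 5 members, and at 5.69% of all genes, which is about the members' share. RPL14, a large subunit protein, had 133 bp at -34 in K562, and RPL39L, a paralog of RPL39 mainly known from the testis, had 207 bp at -18. In HepG2, RPL37A had 142 bp at -10.5, RPS29 had 144 bp at -146.5, and RPS6, the substrate of the S6 kinases, had 50 bp at -60.5. Only 69.6% of the 50-mers of the RPS29 promoter occur once in GRCh37, while those of RPS6 were 97.5% unique, of RPL37A 99.3%, and of RPL14 and RPL39L 100%. In the high-confidence lists, 13 members (15.7%, 9.39 to 25) were high-confidence in HepG2 and not in K562, against 6.76% of all genes, and 6 members (7.23%, 3.36 to 14.9) the other way, against 11.4%. Of the 13, 10 (76.9%) had a lower-confidence K562 interval, against 62.5% of such genes, and of the 6, 4 (66.7%) had a lower-confidence HepG2 interval, against 72.3%.

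Paralogs and readthroughs made up 10 members. RPL36AL, RPS27L and RPS10-NUDT3 had high-confidence intervals in both lines. RPL36AL had 135 bp at -135 in K562 and 204 bp at -117.5 in HepG2, both nearer to the TSS of MGAT2, a glycosyltransferase gene. RPS27L had 177 bp at -29 and 129 bp at -49. RPL26L1 had 97 bp at -68 in HepG2 and lower-confidence intervals of 120 bp and 196 bp in K562. RPL22L1 and RPL7L1 had lower-confidence intervals in both lines. RPL10L, known from the testis, RPL3L, known from striated muscle, and RPL17-C18orf32 had none.

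Small nucleolar RNAs guide rRNA modification, and many are made from introns of ribosomal protein genes. The 28 members with an annotated snoRNA in their span had a high-confidence interval in 14 cases in each line (50%, 32.6 to 67.4). The 55 other members had one in 26 cases in K562 (47.3%, 34.7 to 60.2) and 33 in HepG2 (60%, 46.8 to 71.9). RPL13A, RPL23A, RPL4 and RPL7A hold 4 snoRNAs each, and their classes ran from high-confidence in both lines (RPL13A and RPL23A) to none (RPL7A).

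Intervals could not always be assigned to the member alone. At 26 members the window held the TSS of another protein-coding gene, and 16 of them had a high-confidence interval in each line (61.5%, 42.5 to 77.6). The other 57 had one in 24 cases in K562 (42.1%, 30.2 to 55.0) and 31 in HepG2 (54.4%, 41.6 to 66.6). For these 57, the K562 interval includes the 36.7% of all genes, and the HepG2 interval lies above their 32%. A member had the nearest coding TSS for 36 of 45 intervals in K562 and 42 of 49 in HepG2. The exceptions include RPL15 (NKIRAS1), RPL18 (SPHK2), RPL36AL (MGAT2) and RPL9 (LIAS), which share a promoter region with the gene in parentheses. The K562 interval of RPL6 covered 25 bp at the TSS of PTPN11, at position -9545 from the canonical RPL6 TSS, and was counted through a distant alternative start. RPL36 has a further start near HSD11B1L, with 2 K562 intervals and 1 HepG2 interval there, beside intervals of 132 bp and 171 bp at its canonical promoter. RPL27A had high-confidence intervals at an alternative start in both lines, 295 bp at 6231 in K562 and 168 bp at 6157.5 in HepG2. At its canonical start it had a high-confidence interval of 69 bp at -92 in K562 and a lower-confidence one of 266 bp at -104.5 in HepG2.

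The members' intervals were less GC-rich than those of all genes together. The median GC content of the members' high-confidence intervals was 66.1% in K562 and 62.9% in HepG2, against 71.2% and 67.6% over all genes. A complete G4 motif was found in 3 of 45 intervals in K562 (6.67%, 2.29 to 17.9) and 3 of 49 in HepG2 (6.12%, 2.1 to 16.5). Over all genes the shares were 35.0% (33.9 to 36.1) and 25%. RPL36AL held one in both lines, RPL7 and RPL39L in K562, and RPS16 and RPS26 in HepG2. The lower-confidence K562 intervals of RPS16 and RPS26 also held a motif. In the lower-confidence lists the members' shares were 15.4% in K562 and 9.52% in HepG2, against 36.2% and 27.5% over all genes. Runs of at least 3 G or C numbered 46.2 per kb in K562 and 41.5 per kb in HepG2, against 63.7 and 57.9 per kb. The mitochondrial ribosomal protein genes gave a median GC content of 67.8% and 63.9% and 55.1 and 42.3 runs per kb, in HepG2 close to the members' values. With runs of at least 2 G, 84.4% of the members' intervals in K562 and 67.3% in HepG2 held a motif, against 91.1% and 85.8%.

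The motif share rose with GC content over all genes, so it was also compared within classes. Among intervals of 150 to 250 bp, 1 of 17 of the members' in K562 (5.88%, 1.05 to 27.0) and 3 of 16 in HepG2 (18.8%, 6.59 to 43.0) held a complete motif, against 33.2% and 25.3% of all genes' intervals of that width. Below 60% GC, 0 of 4 member intervals in K562 and 0 of 9 in HepG2 held a motif, where all genes gave 1.87% and 3.99%. At 60% to 65%, the counts were 0 of 13 and 1 of 23 (4.35%), against 14.9% and 14%. At 65% to 70%, 0 of 16 intervals in K562 and 2 of 11 in HepG2 held one, where all genes gave 25.1% and 24.2%. At 70% to 75%, the counts were 3 of 8 in K562 (37.5%) and 0 of 6 in HepG2, against 38.9% and 36.4%. Above 75%, K562 had 0 of 4, against 54.9%, and HepG2 had no member interval. The numbers in each class are small, and the HepG2 share at matched width is not distinguishable from that of all genes by its interval.

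**Figure D4:**
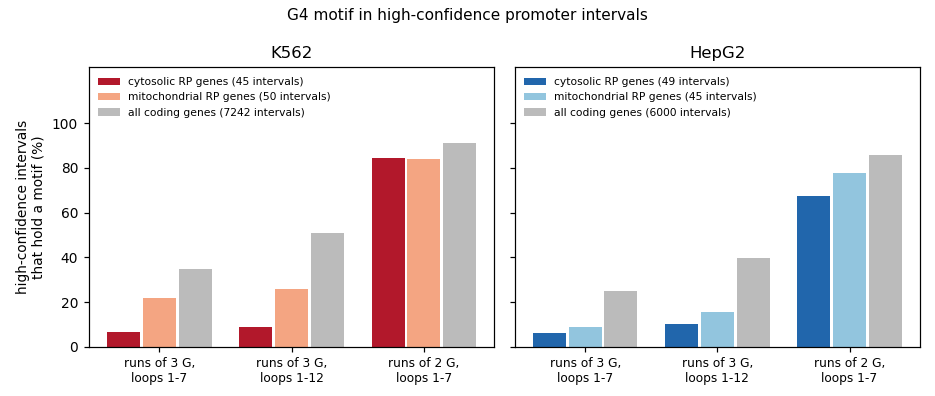
The vertical axis is the percentage of high-confidence promoter intervals that hold a G4 motif under 3 definitions, for K562 (left) and HepG2 (right). Dark bars are cytosolic ribosomal protein genes, light bars mitochondrial ribosomal protein genes and grey bars all coding genes. For runs of 3 G and loops of 1 to 7 bases, the dark bars stand at 6.67% and 6.12% and the grey bars at 35.0% and 25%.

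The reference sequence of the 250 bp upstream of the canonical TSS was compared with that of 18978 genes. The median GC content was 60% for members and 63.2% for all genes, and the ratio of observed to expected CpG dinucleotides 0.928 and 0.756. A complete G4 motif was present in 8 member promoters (9.64%) and in 32.3% of all. All 8 were of members with a high-confidence interval in at least 1 line, as were 63.9% of members. Of all genes' promoters with a motif, 51.6% had such an interval, and of all genes' promoters 43.9%. Among the 8 members, RPL18, RPLP2, RPS27L and RPS28 had no complete motif inside their high-confidence intervals. In K562 their lower-confidence intervals held one. Of the letters searched on both strands, GGGCGG, a core of SP1 sites, was in 56.6% of member promoters and 59.5% of all. CCGGAAG, a core of ETS sites, was in 31.3% and 12%. AAGATGGCG, a YY1 core, was in 1.2% and 0.732%, and TATAAA in 10.8% and 9.28%. Within 5 bp of the annotated TSS, a C followed by at least 4 pyrimidines was found in 68 members (81.9%) and in 21.8% of all genes.

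Members with intervals had more GC-rich promoters than those without. The median GC content was 63.6% for the 34 members with a high-confidence interval in both lines, 54.4% for the 17 with lower-confidence intervals only and 51.2% for the 13 with none. Over all genes the same classes gave 67.6%, 64% and 54.8%. The ranges overlapped. RPL3L had no interval at 68.0% GC. RPL7 and RPL23A had intervals in both lines with promoters of 43.2% and 47.6% GC. Their high-confidence intervals, however, lay farther upstream than these 250 bp. Those of RPL7 had 74.4% GC in K562 and 70.3% in HepG2, and those of RPL23A 58.1% and 62.2%. The TOP sequence was found in 28 of 34 members with high-confidence intervals in both lines (82.4%), 15 of 17 with lower-confidence intervals only (88.2%) and 9 of 13 with none (69.2%), against 81.9% of all members.

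**Figure D5:**
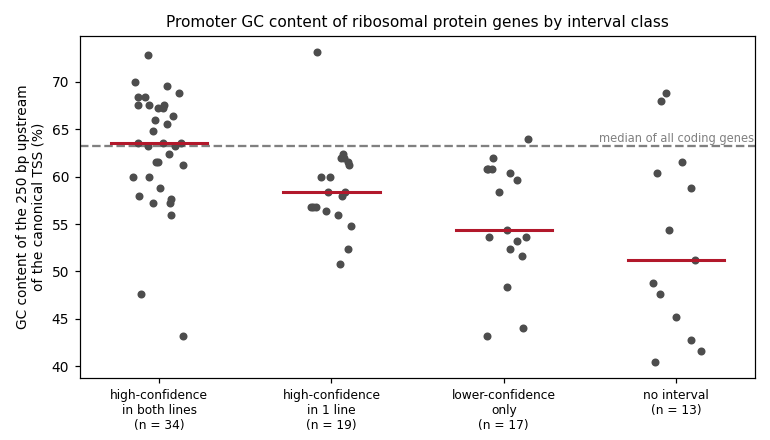
The vertical axis is the GC content, in percent, of the 250 bp upstream of the canonical TSS, each point is 1 member, red lines are medians and the dashed line is the median of all coding genes (63.2%). The medians run from 63.6% for members with high-confidence intervals in both lines to 51.2% for the 13 members without an interval, and the points of the classes overlap.

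Other genes of the translation machinery were counted in the same way. Of 78 genes for mitochondrial ribosomal proteins, which serve a separate ribosome, 38 had a high-confidence interval in each line (48.7%, 37.9 to 59.6). Their intervals held a complete motif in 22.0% of 50 cases in K562 and 8.89% of 45 in HepG2. Of 20 genes for translation factors and other TOP transcripts, 14 had a high-confidence interval in each line (70%, 48.1 to 85.5), among them EEF1A1, EEF1G, NPM1 and TPT1 in both. Of 28 ribosome assembly genes, 18 had one in K562 (64.3%, 45.8 to 79.3) and 20 in HepG2 (71.4%, 52.9 to 84.7), among them FBL and NCL, nucleolar proteins of rRNA processing. The intervals of these lists overlap those of the cytosolic ribosomal protein genes.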

How the data were processed

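G4 ChIP-seq libraries of K562 and HepG2 were processed by the authors with cutadapt 1.16 (trimming), BWA 0.7.15 (alignment, hg19), Picard 2.14.0 and samtools 1.6 (duplicates), MACS2 2.1.1 (peaks of each replicate, q-value under 0.05) and bedtools 2.26.0 (merging by multiinter), versions as in the submitters' processing notes. What was deposited are positions of intervals in bp, without counts, so depth is unknown. The lists hold 9205 and 19249 (K562) and 8805 and 28387 (HepG2) intervals at high and lower confidence.

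Intervals were compared with GENCODE 44 lifted to GRCh37, whereas the authors used an earlier release. The canonical TSS is that of the transcript GENCODE marks as such. Motifs and sequences were read from GRCh37. Members and lists were chosen with earlier results of these data known. The genes named singly were the 6 with the widest intervals per line, those with a motif, those with an interval in 1 line alone, those without any, and those on the lists. Some members and their sequences are not reported here, but counts include them. Genes outside this rule that are named were chosen after their values were seen. Overlaps and motif calls were tested on simulated data. Python 3.11.15, numpy 2.4.6, scipy 1.17.1, pysam 0.24.0, numba 0.67.0 and matplotlib 3.10.9 were used.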

Additional observations from a re-analysis of the deposited data

How the results depend on the processing

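Of 158 values computed under other settings, 148 stayed within 1.5 times the count, or within the 95% interval of the median or share, and 10 moved. Without the members whose window holds another coding TSS, high-confidence counts were 24 in K562, 31 in HepG2 and 20 in both lines, of 57 members. As shares of the 57 these are 42.1%, 54.4% and 35.1%. The 95% intervals for K562 (30.2 to 55.0) and for both lines (24.0 to 48.1) include the 36.7% and 25.3% of all genes. All genes were not restricted in the same way. Counting only intervals whose nearest coding TSS is that of a member left 20 members without an interval (24.1%). High-confidence counts were then 35 of 83 in K562 (42.2%), 42 in HepG2 (50.6%) and 29 in both lines (34.9%). All genes were not counted by this rule, and no 95% intervals were computed for these shares. With the lower-confidence list the median width was 231.5 bp in K562 and 228.5 bp in HepG2. A G4 motif was held by 84.4% (K562) and 67.3% (HepG2) of intervals with runs of at least 2 G, by 22.2% in K562 with the interval widened by 50 bp, where all genes gave 46.0%, and by 18.75% in HepG2 among intervals of 150 to 250 bp. The settings on incomplete transcripts, interval width, promoter uniqueness and nearest TSS were added after seeing the data. Other TSS sets, windows, overlap rules, merging and width minimums changed no count by more than 1.5 times. In K562 the high-confidence share was 44.6% with 250 bp either side, against 34.6% of all genes. With intervals of at least 50 bp it was 45.8%, against 35.8%. No 95% interval was computed for these shares. As reported, the K562 share was 48.2% with a lower bound of 37.8, close to the 36.7% of all genes. Leaving out a replicate was not possible, since each list is 1 merged set, and no paired analysis was possible because the lists carry no replicate values. With no depth, an absent interval does not show an absent G4. The part of repeated sequence was not tested beyond leaving out members with under 50% unique 50-mers. Of the 82 members left, 40 had a high-confidence interval in K562 and 47 in HepG2, and 12 had no interval. Under a limit of 95%, 12 of 83 members had promoters with fewer unique 50-mers, 3 of them without an interval.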

Other observations

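Some proteins of the cytosolic ribosome whose symbols do not follow the RPL and RPS naming were left out of the counts above. FAU, which encodes a ubiquitin-like fusion with RPS30, had its widest high-confidence interval at 279 bp in K562 and 197 bp in HepG2. RACK1, a scaffold protein on the small subunit, had lower-confidence intervals only, of 200 bp and 188 bp.

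Strand composition of the 250 bp upstream of the TSS also differed. Member promoters held on average 3.94 runs of at least 3 G and 5.76 runs of at least 3 C on the coding strand, against 6.61 and 6.52 over all genes. The median GC skew, G minus C as a percentage of G plus C, was -7.56% for members and 0% for all genes. It was -2.92% for the 34 members with high-confidence intervals in both lines and -4.76% for the 13 members with none. The classes between were more skewed. Members with a high-confidence interval in HepG2 only had -10.2%, those in K562 only -8.36%, and those with lower-confidence intervals only -8.75%.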
